A study of Mus musculus with 6 samples.

Results

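Nuclear receptors are transcription factors that most often carry a DNA-binding domain of zinc fingers and a ligand-binding domain for a hormone, a vitamin derivative or a lipid. Here the open chromatin at 38 mouse genes of this family was described in leukemia stem cells with and without mycophenolate mofetil (MMF). The 38 genes were taken as a list of symbols, and a peak counted for a gene when it overlapped the gene body or the 20 kb on either side (GENCODE M21 annotation, build mm10). Peaks of the 6 samples that overlapped were merged, which gave 112852 regions in all and 351 at the receptor genes. Of the 351 regions, 151 held a peak in all 6 samples and are called shared below. A window can also hold other genes: the nearest protein-coding transcription start belonged to a receptor gene for 249 of the 351, and 12 regions lay in the windows of a pair of receptor genes.

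The assay was ATAC-seq, in which the Tn5 transposase cuts accessible DNA and the reads pile up over open chromatin. The cells were leukemic granulocyte-macrophage progenitors (L-GMPs), the stem cell fraction of a murine acute myeloid leukemia made by retroviral expression of the MLL-AF9 fusion in hematopoietic progenitors that were then transplanted, so both groups carried MLL-AF9. The labels give their genotype as WT and their tissue as blood, and the cells grew with serum and mouse IL-3. One group of 3 samples was the untreated control, and the other group of 3 received MMF for 24 h, a drug that blocks IMPDH and with it the synthesis of guanine nucleotides. The labels give no dose, and the study's methods and legends differ in dose and time, so these are taken only as the labels state them. Neither the labels nor the methods say that same-group samples came from separate animals, so the spread between them may be technical. The control lists held 58496 to 63911 peaks and the MMF lists 80893 to 86556, and read depth as such was not in the files.

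Receptors of the retinoid, vitamin D, thyroid hormone and fatty acid branches bind DNA as heterodimers with a retinoid X receptor, mostly at direct repeats of the hexamer AGGTCA, while steroid receptors bind as homodimers at palindromes. Without ligand, many of the heterodimers hold corepressors at their sites, and ligand exchanges these for coactivators. In myeloid cells this family is known for retinoic acid receptor alpha, which drives granulocyte differentiation and is fused to PML in acute promyelocytic leukemia, and for Nr4a1 and Nr4a3, whose joint loss causes myeloid leukemia in mice.

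The sequences of the elements on which the results turned are printed first, as 100 bases centred on the summit (GRCm38, which has the mm10 coordinates), so that the letters can be set beside the values below. Capitals mark exact matches to the motifs searched: the receptor hexamer, the CRE, C/EBP, PU.1 and AP-1 motifs, each on either strand. The last line is a 30-base window around the direct repeat of receptor hexamers with 5 bases between them in the Rarb promoter, in the direction of Rarb transcription. The called element at the other end of Rarb lay in an annotated untranslated exon and is given by its coordinates alone.
Pparg intron, open with MMF alone, chr6:115432609-115432708, plus strand: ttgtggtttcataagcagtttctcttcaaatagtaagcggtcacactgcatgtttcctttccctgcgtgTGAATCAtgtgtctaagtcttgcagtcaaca
downstream of Rxra, open with MMF alone, chr2:27772039-27772138, plus strand: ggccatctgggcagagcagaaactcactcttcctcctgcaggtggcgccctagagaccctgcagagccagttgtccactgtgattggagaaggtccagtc
upstream of Nr1h2, open with MMF alone, chr7:44557012-44557111, plus strand: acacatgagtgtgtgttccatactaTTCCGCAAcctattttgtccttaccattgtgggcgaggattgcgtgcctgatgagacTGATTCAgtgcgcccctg
Thrb intron, higher with MMF, chr14:17879619-17879718, plus strand: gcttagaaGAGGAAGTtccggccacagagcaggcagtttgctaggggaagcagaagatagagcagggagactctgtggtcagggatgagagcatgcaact
19.0 kb beyond the Rxrb gene body, higher with MMF, chr17:34057320-34057419, plus strand: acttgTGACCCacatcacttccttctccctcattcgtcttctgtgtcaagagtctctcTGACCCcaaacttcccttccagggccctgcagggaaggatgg
9.20 kb beyond the Rxrb gene body, higher with MMF, chr17:34047551-34047650, plus strand: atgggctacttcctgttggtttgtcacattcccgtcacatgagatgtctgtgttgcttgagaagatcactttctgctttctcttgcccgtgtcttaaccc
Nr6a1 promoter, lower with MMF by centred reads, chr2:38926408-38926507, plus strand: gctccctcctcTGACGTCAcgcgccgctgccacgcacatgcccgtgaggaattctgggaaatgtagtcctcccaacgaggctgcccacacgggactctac
Esrra promoter, lower with MMF by centred reads, chr19:6921977-6922076, plus strand: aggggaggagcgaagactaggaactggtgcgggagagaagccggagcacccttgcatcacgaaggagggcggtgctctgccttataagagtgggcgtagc
Rarb promoter, direct repeat, chr14:16575507-16575536, minus strand: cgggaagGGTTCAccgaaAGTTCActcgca

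The retinoid X receptor beta element farther from the gene held a pair of hexamers, the Thrb element a PU.1 motif, the Pparg element an AP-1 motif, the Nr1h2 element a C/EBP and an AP-1 motif, and the Nr6a1 promoter a CRE. A match describes these letters and is not evidence of binding.

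Most of the 38 listed receptor genes were open at a promoter. A promoter peak, defined as one within 1000 bp of an annotated transcription start, was present in all 6 samples for 25 of the 38 receptor genes (65.8%), beside 53.3% of all 21911 protein-coding genes. Another 6 genes had one in some samples only (Esr2, Nr5a1, Nr1h3, Rarb, Rorb and Rxra), and Esrrb, Esrrg, Hnf4a, Nr2f2, Nr5a2, Pgr and Rxrg had none. Nr2f2, Nr5a2 and Pgr, which encode an orphan receptor, a gonad and liver receptor and the progesterone receptor, had no peak anywhere in their windows in any sample. Of 11 receptor genes outside the list, 1 had a promoter peak in all 6 samples and 9 had none in any. The 65.8% therefore describes the 38 genes chosen and not the whole family. Strength was compared by the percentile rank of a peak's fold enrichment within its own sample, where 100 is the strongest. The receptor promoters open in all 6 samples had a median rank of 67.3, beside 84.9 for all 11687 such genes.

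**Figure D1:**
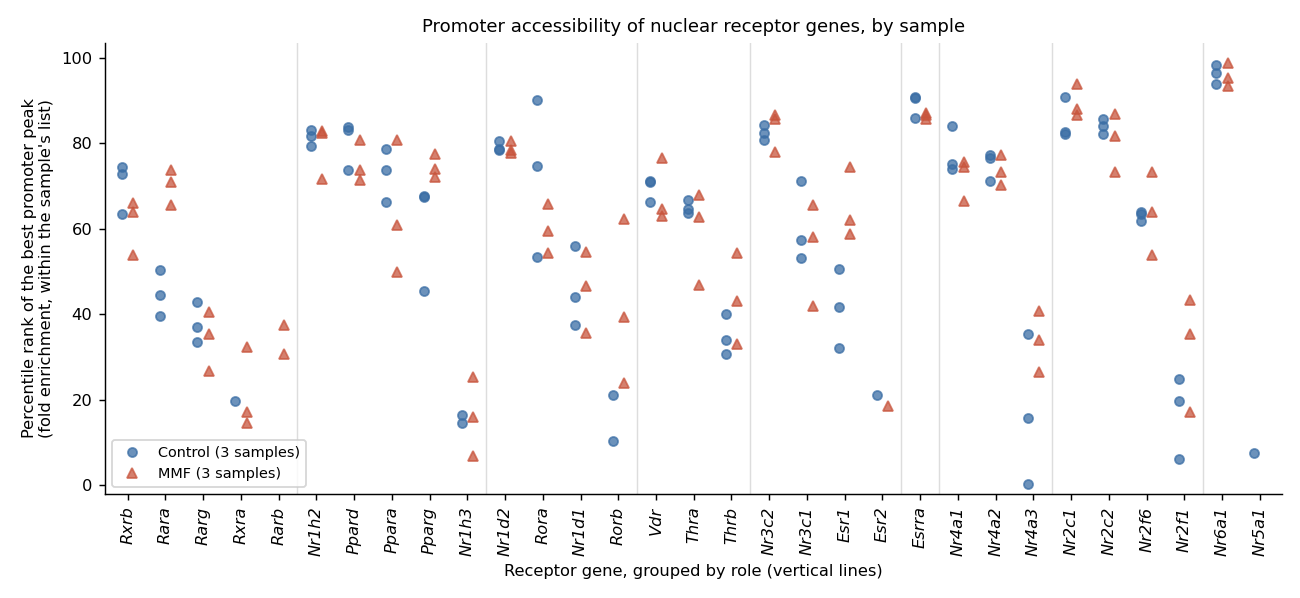
Percentile rank of the strongest promoter peak (vertical axis, fold enrichment within the sample's list) for each receptor gene with a promoter peak in any sample (horizontal axis, grouped by role), with 1 circle per control sample and 1 triangle per MMF sample; a sample without a peak has no point. Nr6a1 stands highest, above 93 in all 6 samples, and the triangles of Rara, Esr1 and Pparg lie above all of their circles.

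**Figure D2:**
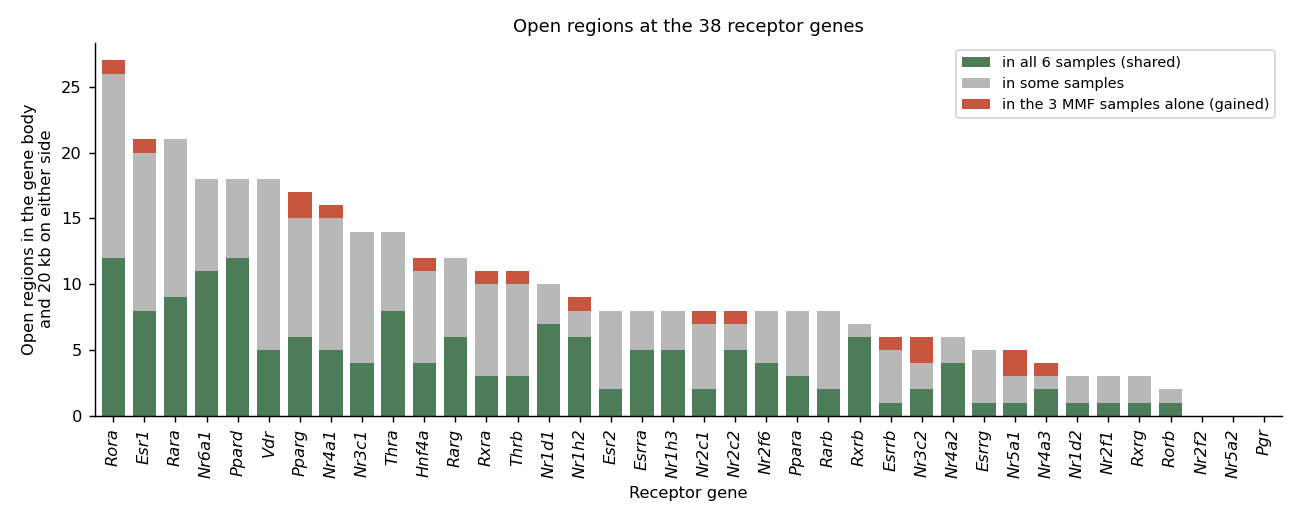
Number of open regions (vertical axis) in the gene body and 20 kb on either side of each of the 38 receptor genes (horizontal axis), stacked by whether the region had a peak in all 6 samples, in some, or in the 3 MMF samples and no control sample. Rora has the most with 27, and Nr2f2, Nr5a2 and Pgr have none.

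More regions were open at the receptor genes with MMF, but so were more regions everywhere. Without MMF the windows held 225, 226 and 209 peaks, and with it 294, 280 and 273, and as a share of each list this was 0.358% ± 0.00598 and 0.334% ± 0.00794 (SD, n = 3 each, exact two-sided permutation test p = 0.1, the smallest that 3 against 3 allows). A region with a peak in the 3 MMF samples and in no control sample was called gained: 17 of the 351 were gained (4.84%), beside 6.0% of all regions, and 0 were lost, beside 0.182%. With every list cut to its 58496 peaks of highest −log10 p, 2 of 283 receptor regions were gained (0.707%) and 4 lost (1.41%). Of all regions, 2.35% were gained and 1.37% lost, so the gained count moved with the length of the lists. The gained share of the receptor regions was below that of all regions in either setting, and this difference was not tested.

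For the shared regions, strength was tested with limma over all 41182 of them in a pair of ways. By percentile rank (on a normal-score scale), 7 of the 151 receptor regions were called higher (4.64%, background 5.83%) and 0 lower (background 0.185%) at a Benjamini-Hochberg adjusted p under 0.05. By summit reads, the reads at the summit over the genome-wide background of the sample, centred on the median shared region, 6 were called higher (3.97%, background 6.90%) and 25 lower (16.6%, background 13.9%). The centring matters for the direction: the median of log2 summit reads over all shared regions was 0.354 higher with MMF (5.28 ± 0.0256 against 4.93 ± 0.0108, SD, n = 3), and without removing this shift 26 receptor regions were called higher (background 18.6%) and 2 lower (background 0.969%). When ranks were taken among the shared regions alone, 1 receptor region was called higher (background 1.44%) and 0 lower (background 0.425%). The 34 regions called by rank or by centred reads kept their sign under all 4 scalings.

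Most of the calls were lost when 1 or another sample was left out. By rank, 5, 3 and 4 regions were called higher without control samples 1, 2 and 3, and 0 without any one of the MMF samples. By centred reads, 3, 3 and 5 were called higher and 11, 6 and 6 lower without each control sample in turn, and 1, 3 and 1 higher and 2, 2 and 3 lower without each MMF sample. Of the 31 calls by reads, 2 were kept under all 9 alternatives, the element in Rarb and the Ndufa12 start beside Nr2c1, and the other 29 missed the threshold without at least 1 MMF sample. Sample by sample, the 3 MMF values lay above all control ranks in 34 of the 151 receptor regions (background 25.0%) and below them in 6 (background 5.12%).

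**Figure D3:**
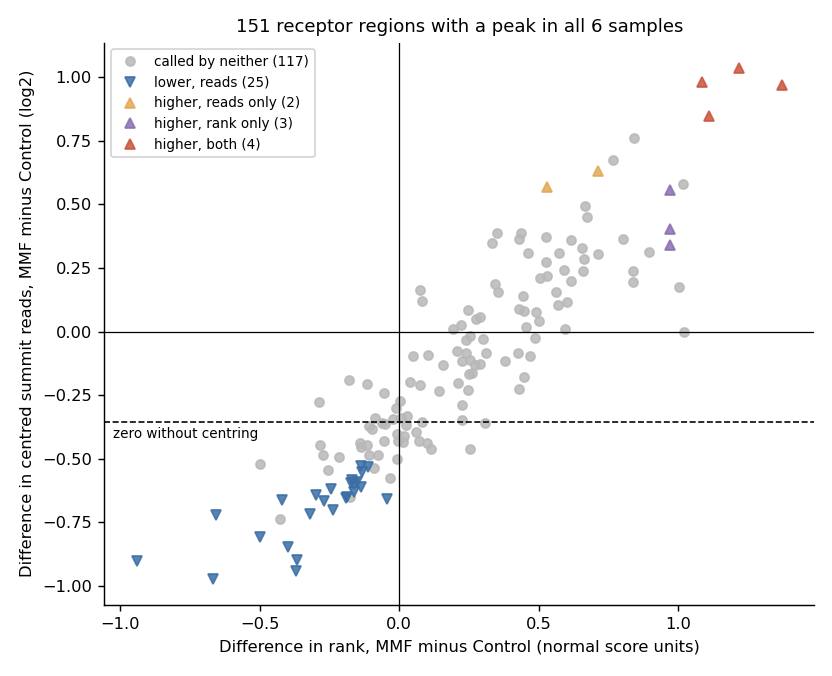
Difference in percentile rank on the normal-score scale (horizontal axis) against difference in log2 summit reads over background, centred (vertical axis), MMF minus control, with 1 point for each of the 151 shared receptor regions and symbols for the limma calls; the dashed line marks no difference before centring. The 4 regions called higher by both measures lie at the upper right, and the 25 called lower by reads lie below the dashed line.

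The retinoid receptor windows held the largest called difference by rank and by centred reads. Rara, Rarb and Rarg encode the retinoic acid receptors, and Rxra, Rxrb and Rxrg their obligate partners. The element of highest rank difference among the 151 lay in Rarb (chr14:16433254-16433623), 386 kb from the 5′ end of the gene body, where Rarb overlaps an annotated untranslated exon of Top2b, the topoisomerase gene beside it. Its ranks were 37.02, 33.9 and 29.3 without MMF and 81.6, 83.1 and 83.3 with it. Its summit reads were 13.7, 14.5 and 12.9 times the background without MMF and 31.9, 35.4 and 35.5 times with it, so the groups did not overlap and the ratio of the means was 2.50. It was higher by rank (1.37 ± 0.16 normal-score units, SE, limma, Benjamini-Hochberg adjusted p = 0.015), by rank among shared regions alone (limma, Benjamini-Hochberg adjusted p = 0.0297) and by centred reads (0.97 ± 0.16 log2 units, limma, Benjamini-Hochberg adjusted p = 0.0108). Without any one MMF sample the rank call was lost (limma, Benjamini-Hochberg adjusted p up to 0.0750), while the call by reads held. The Rarb promoter itself, whose direct repeat is printed above, had no peak in the control samples and ranks of 37.5 and 30.7 in MMF samples 2 and 3.

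A pair of elements downstream of Rxrb, both in introns of the collagen gene Col11a2, were called higher by both measures. The one 18.97 kb beyond the Rxrb gene body (chr17:34057046-34057972) had summit reads of 23.3, 15.9 and 17.7 times the background without MMF and 53.9, 42.5 and 51.7 times with it. Its ratio of means was 2.60 and its centred difference 1.04 ± 0.20 (limma, Benjamini-Hochberg adjusted p = 0.0162, and by rank adjusted p = 0.0252). The one 9.20 kb beyond (chr17:34047236-34047954) had 17.8, 24.6 and 33.9 times the background without MMF and 51.7, 63.7 and 54.7 times with it, a ratio of 2.23 and a centred difference of 0.85 ± 0.23 (limma, Benjamini-Hochberg adjusted p = 0.0333, and by rank adjusted p = 0.0452). In both, every MMF sample lay above every control sample. On the Rxrb side, the promoter that Rxrb shares with the zinc transporter gene Slc39a7 (chr17:34031508-34032430) had 159, 135 and 181 times the background without MMF and 139, 137 and 117 times with it, with overlapping groups, and was called lower only after centring (-0.62 ± 0.17, limma, Benjamini-Hochberg adjusted p = 0.0365).

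Other starts in the Rxrb window were also called lower by centred reads. The start of Ring1, which encodes a Polycomb ubiquitin ligase (chr17:34024331-34025122), had 67.2, 70.9 and 79.01 times the background without MMF and 60.5, 69.4 and 62.1 times with it (-0.53 ± 0.16, limma, Benjamini-Hochberg adjusted p = 0.0417). The start of H2-Ke6 (chr17:34027969-34028224) had 74.1, 82.4 and 95.1 times the background without MMF and 74.8, 79.3 and 67.998 times with it (-0.53 ± 0.17, limma, Benjamini-Hochberg adjusted p = 0.0479). Both sets of samples overlapped. Rxra, the gene of retinoid X receptor alpha, had a promoter peak in control sample 3 at rank 19.8 and in the MMF samples at ranks of 17.2, 32.3 and 14.6, and Rxrg had none. A gained region lay 9.13 kb beyond Rxra (chr2:27771967-27772180), at ranks of 38.99, 44.6 and 62.5 in the MMF samples.

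Rara showed differences in both directions within 1 gene. Its strongest promoter peak by rank (chr11:98959483-98960042, near an internal start) had ranks of 50.2, 44.5 and 39.7 without MMF and 70.9, 73.8 and 65.6 with it, means of 44.8 ± 5.29 and 70.1 ± 4.15 (SD, n = 3), with no overlap. That region was not called by rank (limma, Benjamini-Hochberg adjusted p = 0.0593) and was called higher only without centring (limma, Benjamini-Hochberg adjusted p = 0.0291). An intronic element 22.04 kb into the gene (chr11:98949662-98950168) rose by centred reads, from 28.8, 24.6 and 30.6 to 59.4, 56.7 and 50.3 times the background (0.63 ± 0.17, limma, Benjamini-Hochberg adjusted p = 0.0313). A different Rara promoter region (chr11:98937469-98938308) had 83.7, 78.1 and 69.3 times the background without MMF and 42.9, 69.4 and 70.95 times with it and was called lower by centred reads (-0.72 ± 0.22, limma, Benjamini-Hochberg adjusted p = 0.0428). An intronic region at chr11:98933172-98933595 was also called lower, with 58.999, 50.6 and 56.4 times the background without MMF and 43.99, 55.2 and 45.8 times with it (-0.55 ± 0.16, limma, Benjamini-Hochberg adjusted p = 0.0422). The groups overlapped in both of the lower regions: MMF samples 2 and 3 lay within the control range in the promoter region, and MMF sample 2 in the intronic one. The strongest region in any retinoid receptor window was the start of the replication licensing gene Cdc6, 20.1 kb from Rara, at ranks from 97.4 to 99.6 and called by neither measure.

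Rarg had one of the 3 lowest promoters by rank among the 25, at an internal start (chr15:102246920-102247960), with ranks of 33.4, 42.8 and 36.97 without MMF and 26.6, 40.5 and 35.4 with it. By summit reads Rarg was not low there, with 48.02, 53.5 and 51.6 times the background without MMF and 46.2, 55.2 and 48.8 times with it. In its window, the start of the integrin gene Itgb7 (chr15:102230584-102231484) had 48.02, 57.8 and 41.9 times the background without MMF and 36.3, 36.8 and 33.999 times with it, without overlap (-0.81 ± 0.17, limma, Benjamini-Hochberg adjusted p = 0.0204), and it was also called lower with lists of equal length. An Itgb7 coding exon at chr15:102224460-102224780 had 26.1, 18.8 and 22.6 times the background without MMF and 15.4, 21.2 and 17.7 times with it, with overlap (-0.66 ± 0.19, limma, Benjamini-Hochberg adjusted p = 0.0383). With 27 of the 151 shared regions, the retinoid receptor windows held 3 of the 7 regions called higher by rank, 4 of the 6 higher by reads and 7 of the 25 lower by reads.

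**Figure D4:**
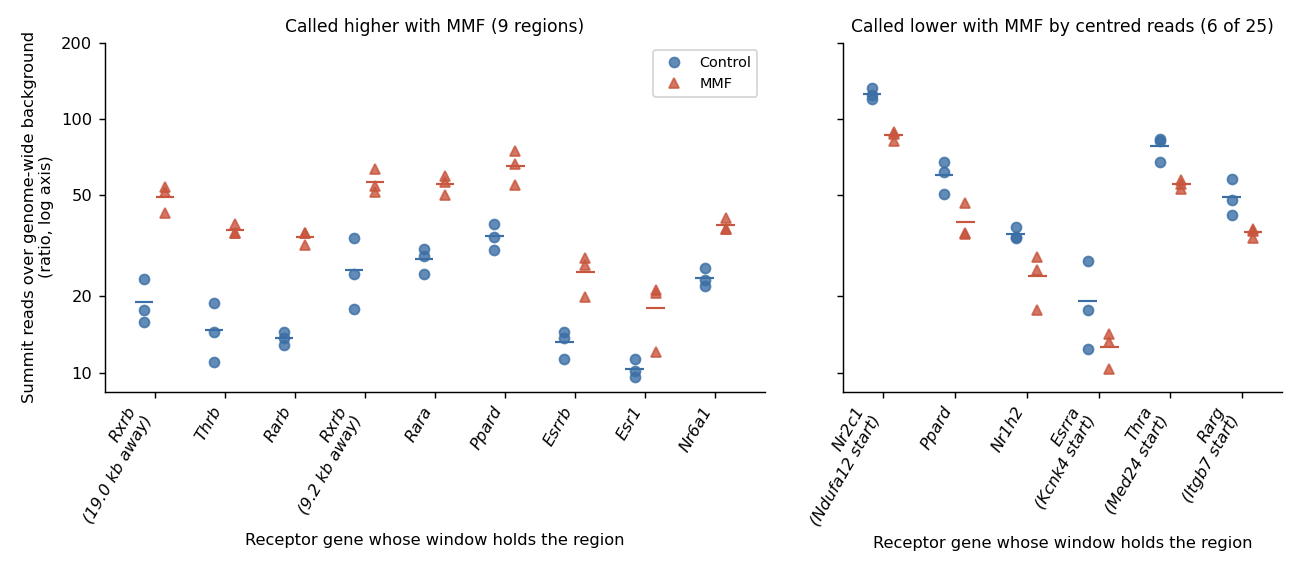
Summit reads over the genome-wide background (vertical axis, ratio on a log axis) by sample for the 9 receptor regions called higher with MMF by rank or centred reads (left) and for 6 of the 25 called lower by centred reads (right), named by the receptor gene whose window holds them; points are samples and lines are group means. In all 9 regions on the left the MMF samples lie above the control samples, and on the right they lie below except for an overlap at the Kcnk4 start beside Esrra.

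The lipid sensors were open at nearly every promoter. Ppara, Ppard and Pparg encode the fatty acid receptors (PPARs), and Nr1h2 and Nr1h3 the oxysterol receptors LXR beta and LXR alpha. Pparg, the regulator of fat cell differentiation, had 6, 7 and 6 open regions without MMF and 15, 12 and 10 with it. The strongest of its promoter peaks in each sample had ranks of 67.5, 45.5 and 67.5 without MMF and 73.99, 72.04 and 77.4 with it, means of 60.2 ± 12.7 and 74.5 ± 2.74 (SD, n = 3). The highest summit reads among its promoter peaks were 20.6, 18.8 and 27.4 times the background without MMF and 41.8, 36.8 and 35.5 times with it, again without overlap. An internal promoter region of Pparg (chr6:115421705-115421988) was called higher without centring only (limma, Benjamini-Hochberg adjusted p = 0.0152; after centring, adjusted p = 0.0597).

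Of the 17 gained regions, that of highest mean rank lay in a Pparg intron (chr6:115432560-115433032), at ranks of 49.95, 37.5 and 64.6. A gained region 3.11 kb upstream of Nr1h2 (chr7:44556929-44557218) had ranks of 35.9, 52.5 and 43.2 and was 1 of the 2 that stayed gained with lists of equal length. Nr1h3 had a promoter peak in control samples 1 and 3, at ranks of 14.7 and 16.4, and in all 3 MMF samples, at 6.79, 25.4 and 15.9, where the range of the MMF samples held that of the controls. A strong shared region, counted as the start of Acp2 alone (chr2:91202344-91203191), had its summit 0.017 kb from the 5′ end of the Nr1h3 gene body. The ranks there were 94.7, 92.1 and 88.5 without MMF and 96.8, 97.0 and 96.3 with it, and neither measure called it.

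Ppard, the ubiquitous PPAR, had called regions in both directions. A region in an intron of Def6, a signalling gene upstream (chr17:28217566-28218743), rose by centred reads from 34.3, 30.4 and 38.7 to 54.99, 75.1 and 66.5 times the background (0.57 ± 0.18, limma, Benjamini-Hochberg adjusted p = 0.0487). An intergenic region 7.57 kb downstream (chr17:28308723-28309138) fell from 61.7, 50.6 and 67.7 to 35.2, 46.7 and 35.5 (-0.97 ± 0.18, limma, Benjamini-Hochberg adjusted p = 0.0158). It was 1 of the 2 receptor regions also lower without centring (limma, Benjamini-Hochberg adjusted p = 0.0456), and the groups did not overlap. Another Def6 intronic region (chr17:28223507-28224526) had 94.7, 94.01 and 119 times the background without MMF and 90.2, 70.8 and 78.3 times with it, without overlap (-0.72 ± 0.18, limma, Benjamini-Hochberg adjusted p = 0.0282). The Ppard promoter (chr17:28232228-28233413) had 86.4, 111 and 79.01 times the background without MMF and 78.1, 84.99 and 70.95 times with it, with overlap (-0.58 ± 0.18, limma, Benjamini-Hochberg adjusted p = 0.0472). The start of the Fanconi anemia gene Fance (chr17:28313224-28314051) had 136, 98.3 and 140.3 times the background without MMF and 95.7, 102 and 108 times with it, with overlap (-0.63 ± 0.18, limma, Benjamini-Hochberg adjusted p = 0.0403).

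The Ppara promoter (chr15:85734859-85736003) had 34.3, 37.6 and 29.02 times the background without MMF and 23.1, 35.4 and 22.2 times with it, with MMF sample 2 among the controls (-0.70 ± 0.21, limma, Benjamini-Hochberg adjusted p = 0.0422). The stronger Nr1h2 promoter region by rank (chr7:44553806-44554154) had 91.9, 117 and 106 times the background without MMF and 94.6, 87.8 and 105 times with it, with overlap, and was not called (limma, Benjamini-Hochberg adjusted p = 0.0655). A weaker one beside it (chr7:44553365-44553700) had 85.1, 94.01 and 80.6 times the background without MMF and 64.9, 82.2 and 63.6 times with it, and was called lower with MMF sample 2 within the control range (-0.66 ± 0.17, limma, Benjamini-Hochberg adjusted p = 0.0291). In the Nr1h2 window, an intron of the DNA polymerase gene Pold1 (chr7:44534227-44534728) had 34.3, 37.6 and 33.9 times the background without MMF and 28.6, 25.5 and 17.7 times with it, without overlap (-0.94 ± 0.20, limma, Benjamini-Hochberg adjusted p = 0.0198). In the Nr1h3 window, the start of Madd (chr2:91182480-91183554) had 102, 120.04 and 96.7 times the background without MMF and 94.6, 93.5 and 79.8 times with it, without overlap (-0.60 ± 0.17, limma, Benjamini-Hochberg adjusted p = 0.0362). All 4 called regions lost their call without centring. The strongest region of the group, the start of Cdpf1 near Ppara, had ranks from 97.1 to 99.2 and was called by neither measure.

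Among the steroid receptors, the Esr1 promoter had a higher rank in each MMF sample. Esr1 and Esr2 encode the estrogen receptors, Nr3c1 the glucocorticoid receptor, Nr3c2 the mineralocorticoid receptor and Pgr the progesterone receptor. The Esr1 promoter had ranks of 41.8, 50.6 and 32.01 without MMF and 74.5, 62.1 and 58.7 with it, means of 41.5 ± 9.30 and 65.1 ± 8.33 (SD, n = 3). Its summit reads were 15.1, 18.8 and 14.5 times the background without MMF and 31.9, 24.1 and 23.7 times with it, and by rank and by uncentred reads each MMF sample exceeded each control sample. After centring, the Esr1 promoter difference was 0.36 ± 0.19 (limma, Benjamini-Hochberg adjusted p = 0.183). An intronic element 9.55 kb from the 5′ end (chr10:4621043-4621839) had ranks of 15.7, 14.8 and 9.83 without MMF and 29.04, 48.5 and 56.1 with it and was called higher by rank (0.97 ± 0.22, limma, Benjamini-Hochberg adjusted p = 0.0452). It was not called by centred reads (limma, Benjamini-Hochberg adjusted p = 0.199), and the rank call was lost when any one of the 6 samples was left out (limma, Benjamini-Hochberg adjusted p from 0.0755 to 0.131). All 8 shared Esr1 regions had positive differences by rank, over the whole list (67.7% of all shared regions did) and among shared regions (44.8%), while 6 of the 8 were positive by centred reads (36.0%). All 6 shared Pparg regions were positive by rank over the whole list, but 4 were positive by rank among shared regions and 3 by centred reads. The strongest Esr1 region (chr10:4786887-4787575, intronic) had ranks of 97.5, 95.6 and 98.8 without MMF and 99.2, 99.6 and 96.2 with it and did not differ beyond that spread. A gained region in an Esr1 intron (chr10:4955191-4955509) had ranks of 15.3, 37.5 and 46.5.

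Nr3c2 had one of the 5 strongest receptor promoters by mean rank, with ranks of 84.3, 82.3 and 80.7 without MMF and 85.6, 77.9 and 86.7 with it. Its summit reads were 76.8, 76.7 and 69.3 times the background without MMF and 90.2, 82.2 and 94.6 times with it, so the MMF samples were higher by uncentred reads although the ranks overlapped. This uncentred difference was 0.26 log2 units (limma, Benjamini-Hochberg adjusted p = 0.294), below the shift of 0.354 in the median shared region. After centring, the Nr3c2 promoter difference was -0.094 ± 0.16 (limma, Benjamini-Hochberg adjusted p = 0.682). A gained region 2.26 kb upstream (chr8:76897026-76897288) had ranks of 41.8, 40.2 and 34.6 and was the other region that stayed gained with lists of equal length. The Nr3c1 promoter was open in all 6 samples at ranks of 71.1, 57.2 and 53.1 without MMF and 57.97, 65.5 and 41.9 with it, with overlap. Of the 16 shared steroid receptor regions, 0 were called lower by centred reads (background 13.9%), and Esr2 had a promoter peak in 1 control and 1 MMF sample, at ranks of 21.2 and 18.6.

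**Figure D5:**
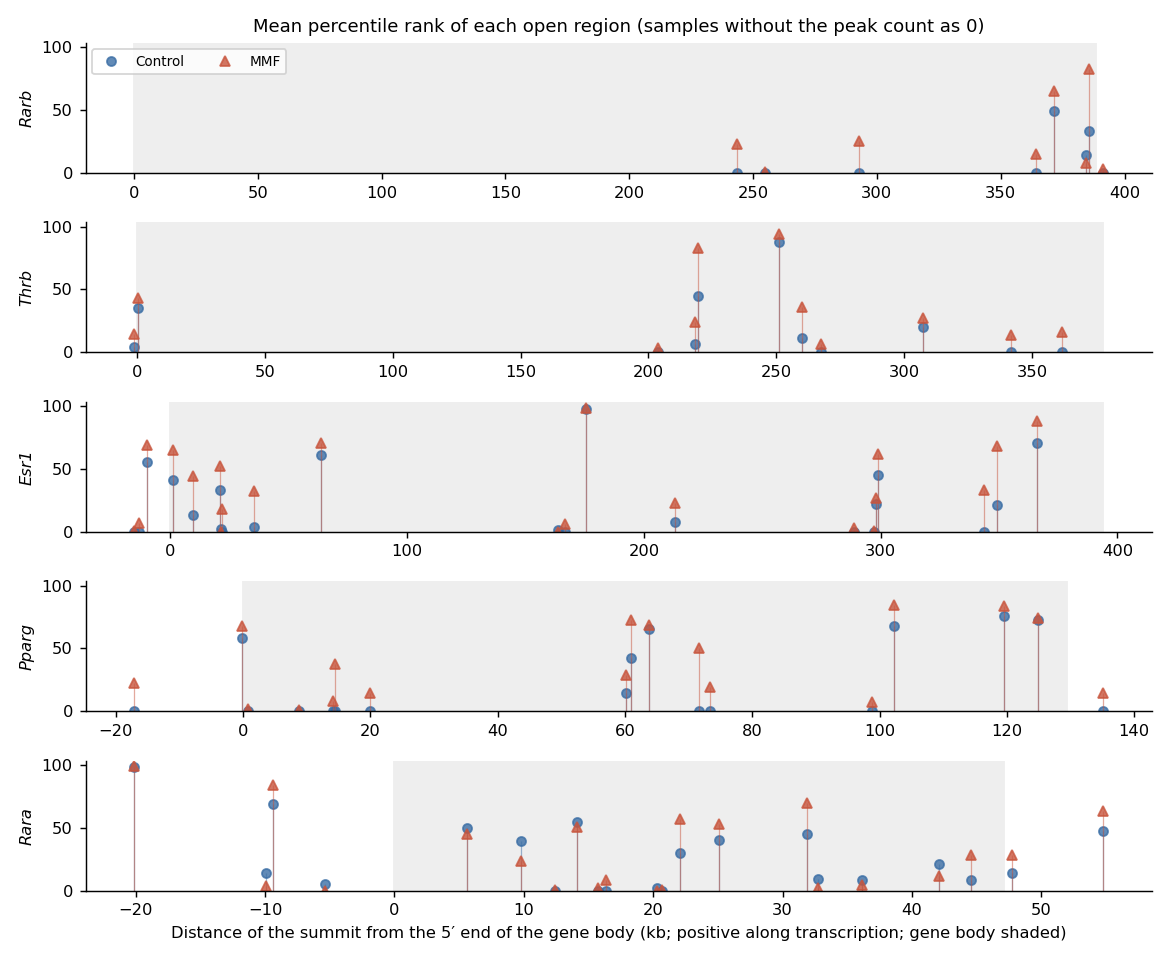
Mean percentile rank (vertical axes) of each open region against the distance of its summit from the 5′ end of the gene body in kb (horizontal axes, positive along transcription, gene body shaded) for Rarb, Thrb, Esr1, Pparg and Rara, with 1 circle for the control mean and 1 triangle for the MMF mean of 3 samples, samples without the peak counting as 0. The triangle of the called element near the end of Rarb lies far above its circle, and the Esr1 triangles lie above or close to their circles along the gene.

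Among the vitamin D and thyroid hormone receptors, a Thrb intron held the fourth region called higher by both measures. Vdr encodes the vitamin D receptor, and Thra and Thrb the thyroid hormone receptors. The Thrb element (chr14:17879533-17880000), 219 kb from the 5′ end, had summit reads of 10.98, 18.8 and 14.5 times the background without MMF and 38.5, 35.4 and 35.5 times with it, a ratio of means of 2.47. It rose by centred reads (0.98 ± 0.21, limma, Benjamini-Hochberg adjusted p = 0.0193) and by rank (1.09 ± 0.23, limma, Benjamini-Hochberg adjusted p = 0.0357), and no sample overlapped. The Thrb promoter was weak, with ranks of 30.6, 40.04 and 34.1 without MMF and 43.1, 54.3 and 32.9 with it that overlapped. Its summit reads were 10.98, 13.02 and 12.9 times the background without MMF and 15.4, 19.8 and 13.3 times with it, higher in each MMF sample before centring. After centring, the Thrb promoter difference was 0.026 ± 0.18 (limma, Benjamini-Hochberg adjusted p = 0.929).

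Thra moved the other way by centred reads. Its promoter (chr11:98741646-98742384) had 38.4, 37.6 and 40.3 times the background without MMF and 29.7, 31.2 and 38.4 times with it, with MMF sample 3 within the control range (-0.59 ± 0.17, limma, Benjamini-Hochberg adjusted p = 0.0381). The start of the mediator gene Med24 in its window (chr11:98729115-98729612) had 83.7, 67.97 and 82.2 times the background without MMF and 52.8, 55.2 and 57.7 times with it, without overlap (-0.85 ± 0.16, limma, Benjamini-Hochberg adjusted p = 0.0163), and was the strongest region of the group, with ranks of 99.6, 98.7 and 99.1 without MMF and 98.5, 96.97 and 97.4 with it. A region shared with the Nr1d1 window (chr11:98773668-98774249, an Nr1d1 intron) had 137, 162 and 166 times the background without MMF and 129.8, 137 and 126 times with it, with overlap (-0.59 ± 0.16, limma, Benjamini-Hochberg adjusted p = 0.0328). Without centring, none of these 3 was called. The Vdr promoter had ranks of 66.3, 70.9 and 71.1 without MMF and 63.01, 76.6 and 64.6 with it, and 1 of the Vdr introns held a direct repeat of hexamers with 5 bases between them in a region open in 2 control and 2 MMF samples.

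Of the 21 shared regions of the clock-linked receptors, 0 were called higher by rank (background 5.83%) or by centred reads (background 6.90%) and 1 lower by reads. Nr1d1 and Nr1d2 encode the REV-ERB repressors of the circadian clock, and Rora and Rorb the ROR activators that compete for the same sites. Nr1d2 was steady, with promoter ranks of 78.7, 78.4 and 80.4 without MMF and 78.4, 80.6 and 77.7 with it. Rora had the most open regions, with 19, 16 and 16 without MMF and 22, 24 and 20 with it. Its strongest promoter peak lay at an internal start (chr9:69289522-69290910), not at the 5′ end of the gene body. The ranks there were 53.3, 74.6 and 90.2 without MMF and 59.5, 65.7 and 54.2 with it, a spread among controls wider than the difference between groups. A gained region in a Rora intron (chr9:69109691-69110135) had ranks of 38.99, 64.5 and 20.1. The Nr1d1 promoter had ranks of 44.1, 55.9 and 37.4 without MMF and 46.5, 54.5 and 35.6 with it, which overlapped. The Rorb promoter had a peak in control samples 1 and 2, at ranks of 10.3 and 21.2, and in the MMF samples, at 23.9, 62.2 and 39.3. The strongest Rorb region, in an intron (chr19:19041788-19041937), had ranks of 99.8, 99.7 and 99.7 without MMF and 99.8, 99.8 and 99.8 with it, and its 150 bp equalled the shortest peak width in every list.

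Of the estrogen-related receptors, regulators of energy metabolism, Esrra alone had a promoter peak, and a strong one. Its ranks were 85.9, 90.5 and 90.7 without MMF and 85.6, 86.5 and 87.01 with it. The promoter region (chr19:6921335-6922490) had summit reads of 155, 191 and 197 times the background without MMF and 146, 153 and 152 times with it, without overlap, and was called lower after centring (-0.61 ± 0.16, limma, Benjamini-Hochberg adjusted p = 0.0327). The start shared by Prdx5, an antioxidant enzyme gene, and Trmt112 (chr19:6909396-6910706) had 137, 139 and 135 times the background without MMF and 134, 109 and 94.6 times with it, without overlap (-0.65 ± 0.18, limma, Benjamini-Hochberg adjusted p = 0.0335). The start of the potassium channel gene Kcnk4 (chr19:6933613-6934214) had 12.3, 27.5 and 17.7 times the background without MMF and 13.2, 14.2 and 10.3 times with it, with overlap (-0.90 ± 0.27, limma, Benjamini-Hochberg adjusted p = 0.043). An Esrrb intronic region (chr12:86484378-86484957) had ranks of 46.4, 46.99 and 23.5 without MMF and 67.7, 77.4 and 79.1 with it, without overlap, and was called higher by rank alone (0.97 ± 0.23, limma, Benjamini-Hochberg adjusted p = 0.0475), a call that was lost when any one sample was left out (limma, Benjamini-Hochberg adjusted p from 0.0661 to 0.134).

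The NR4A receptors, immediate-early genes that act without a classical ligand, were open in all 6 samples at each promoter. Nr4a1 had promoter ranks of 75.2, 73.8 and 84.1 without MMF and 66.6, 74.5 and 75.6 with it, and a further Nr4a1 promoter region was gained (chr15:101265957-101266406), at ranks of 19.04, 13.8 and 33.99. Nr4a3 had one of the 3 lowest promoters by rank, 0.194, 35.4 and 15.6 without MMF and 34.1, 40.8 and 26.5 with it. At Nr4a2, the promoter region at the 5′ end (chr2:57123191-57124480) had 46.7, 59.3 and 41.9 times the background without MMF and 41.8, 55.2 and 50.3 times with it, with overlap, and was not called (limma, Benjamini-Hochberg adjusted p = 0.186). An internal start 9.01 kb into Nr4a2 (chr2:57114410-57115301) had 50.8, 56.4 and 70.9 times the background without MMF and 46.2, 48.2 and 50.3 times with it, without overlap, and was called lower by centred reads (-0.64 ± 0.17, limma, Benjamini-Hochberg adjusted p = 0.0339). The strongest region of this group was the start of the autophagy gene Atg101 near Nr4a1, with ranks from 92.4 to 99.2.

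Among the orphan receptors of the NR2 group, Nr2c1 and Nr2c2, which encode the testicular receptors TR2 and TR4, had strong promoters. The Nr2c1 ranks were 90.8, 82.7 and 82.1 without MMF and 88.04, 93.7 and 86.6 with it, and the Nr2c2 ranks were 83.9, 85.6 and 82.03 without MMF and 73.3, 86.7 and 81.8 with it, both with overlap. Another Nr2c1 promoter region was gained (chr10:94156451-94156807), at ranks of 3.08, 50.8 and 39.3, and a region 12.6 kb from Nr2c2 was gained (chr6:92078673-92079076), at ranks of 44.7, 28.9 and 52.6. Nr2f1 had the lowest promoter of the 25 by mean rank, with ranks of 24.9, 6.24 and 19.6 without MMF and 43.3, 35.3 and 17.2 with it. Its summit reads were 13.7, 11.6 and 16.1 times the background without MMF and 23.1, 21.2 and 19.2 times with it, higher in each MMF sample before centring. After centring, the Nr2f1 promoter difference was 0.27 ± 0.18 (limma, Benjamini-Hochberg adjusted p = 0.272). The start of Ndufa12, a subunit gene of respiratory complex I in the Nr2c1 window (chr10:94198665-94199410), fell from 125, 120.04 and 132 to 89.1, 82.2 and 87.2 times the background (-0.90 ± 0.15, limma, Benjamini-Hochberg adjusted p = 0.0126). This fall was also called without centring (limma, Benjamini-Hochberg adjusted p = 0.0342). The start of Use1 in the Nr2f6 window (chr8:71367107-71367675) had 129, 142 and 131 times the background without MMF and 95.7, 123 and 109 times with it, without overlap (-0.65 ± 0.16, limma, Benjamini-Hochberg adjusted p = 0.0283). The strongest region of the group was the start of the DNA repair gene Babam1 near Nr2f6, with ranks from 98.2 to 99.5.

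Nr6a1, the germ cell nuclear factor, had the strongest promoter of the listed receptors by rank, with ranks of 98.4, 96.5 and 93.9 without MMF and 98.6, 95.2 and 93.3 with it. Its summit reads (chr2:38926085-38926873) were 155, 150.4 and 131 times the background without MMF and 135, 110.5 and 108 times with it, with overlap, and it was called lower by centred reads (-0.66 ± 0.17, limma, Benjamini-Hochberg adjusted p = 0.031) while its rank difference was near 0. An Nr6a1 intronic region (chr2:38823914-38824412) went the other way, with ranks of 17.3, 16.97 and 17.9 without MMF and 55.8, 46.99 and 50.7 with it, without overlap (0.97 ± 0.16, limma, Benjamini-Hochberg adjusted p = 0.022), though not by centred reads (limma, Benjamini-Hochberg adjusted p = 0.137). The related Nr5a1, which encodes steroidogenic factor SF-1, had a promoter peak in control sample 3 alone, at rank 7.53, and a gained region 2.63 kb beyond its body (chr2:38689898-38690255) at ranks of 44.7, 8.997 and 39.3. Hnf4a, the liver and gut receptor, had no promoter peak but 12 open regions in its window, of which 4 were shared and 1 was gained (chr2:163583856-163584109), at ranks of 40.8, 22.5 and 41.5.

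By promoter, the groups differed by the scale used. Of the 25 genes, the MMF ranks lay above all control ranks for Esr1, Pparg and Rara (background 7.91%) and below them for 0 (background 9.69%). By uncentred summit reads they lay above for Esr1, Nr2f1, Nr3c2, Pparg and Thrb (background 6.19%) and below for Esrra alone (background 17.8%). By centred reads, limma called a promoter region lower for 9 of the 25 (36.0%, background 31.7%) and higher for 0 (background 1.00%). The 9 were Rara, Rxrb, Ppara, Ppard, Nr1h2, Thra, Esrra, Nr4a2 and Nr6a1. At Rara, Nr1h2 and Nr4a2 a promoter region of higher mean rank was not called. Over all receptor regions, 19 of the 25 called lower lay at transcription starts, of receptor genes or their neighbours, and 0 of those called higher did, beside 56.9% and 3.73% of all regions called lower and higher by reads. The shared receptor regions lay at starts more often to begin with, 37.1% of the 151 beside 27.0% of all shared regions. The regions called lower had a median GC content of 66% over 200 bp, beside 60.5% for all regions called lower by reads or rank, and those called higher 53%, beside 47%. The part of GC content in these calls was not tested.

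The single receptor hexamer was about as frequent in the receptor windows as elsewhere, while direct repeats of it, few in number, stood in a higher share of regions. Within 200 bp around the summit, 38.7% of the 351 regions held a receptor hexamer (AGGTCA or GGGTCA or AGTTCA or GGTTCA, either strand), beside 35.8% of all regions. Direct repeats of these hexamers with 1 to 5 bases between them stood in 7 regions (1.99%), beside 0.602% of all regions, at Nr6a1, Nr1h2, Rora, Thra, Rarb, Vdr and Nr4a1, and 3 of these 7 regions were shared. C/EBP motifs (TTGCNNAA) stood in 15.7% of the 351 and in 6 of the 17 gained regions (35.3%), beside 14.97% and 23.5% of all and all gained regions. PU.1 (GAGGAAGT) motifs stood in 7.12% beside 8.28%, AP-1 (TGANTCA) in 13.4% beside 16.1%, CTCF cores (CCANNAGNG) in 15.1% beside 19.3% and glucocorticoid receptor cores (ACANNNTGT) in 5.41% beside 7.20%. The ROR and REV-ERB motif (TAGGTCA, which contains a hexamer) stood in 2.28% beside 2.03%, the NR4A motif (AAAGGTCA, which contains one too) in 1.14% beside 1.02%, and the CRE (TGACGTCA) in 1.14% beside 0.723%. In RefSeq promoters of 250 bases before to 50 after each start (GRCm38.p6), which matched 35 of the 38 genes through 56 promoters, a repeat with 5 bases between hexamers was found for Rarb alone, beside 0.0974% of 32851 promoters.

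Genes that work with the receptors were read at their promoters in the same fit. Of 16 coactivators and corepressors, 15 were open in all 6 samples and 6 had a promoter region lower by centred reads, 0 higher, beside the 31.7% given above. These included Ppargc1b, a PPAR coactivator (-0.86), Ncor1, the nuclear receptor corepressor (-0.72), and Crebbp, an acetyltransferase (-0.68, all log2 differences). At Ppargc1b another promoter region was not called (-0.32, limma, Benjamini-Hochberg adjusted p = 0.243). Of 11 further receptor genes, 1 was open in all 6 samples and 9 had no promoter peak in any. Of 12 genes of retinoid metabolism, 3 were open in all 6 samples, and Rdh10, which makes the precursor of retinoic acid, was lower. Of 12 LXR and PPAR enzymes and targets, 8 were open throughout. Mylip, an LXR target that degrades the LDL receptor (-0.78), and Lpcat3 were lower by reads, Cpt1a, the carnitine palmitoyltransferase of fat oxidation, was lower by rank (limma, Benjamini-Hochberg adjusted p = 0.0490), and Abcg1 and Plin2 were higher without centring only. A further Mylip promoter region was not called (-0.19, limma, Benjamini-Hochberg adjusted p = 0.367). Its ranks were 50.5, 58.6 and 48.6 without MMF and 75.3, 69.5 and 67.6 with it, without overlap. At Cpt1a and Abcg1 another promoter region was not called.

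All 7 glucocorticoid target genes were open in all 6 samples. Of these, 4 had a promoter region lower by centred reads: Fkbp5 (-0.81), Tsc22d3 (-0.67), Klf9 (-0.57) and Per1 (-0.52). At Fkbp5 a stronger promoter region was not called (-0.47, limma, Benjamini-Hochberg adjusted p = 0.0605), and at Tsc22d3 and Per1 weaker promoter regions were not called. All 8 clock partners were open throughout, and Clock (-0.77), Per2 (-0.69), Dbp (-0.63) and Per1 were lower. At Dbp a weaker promoter region was not called (-0.44, limma, Benjamini-Hochberg adjusted p = 0.0791). Of 6 vitamin D and thyroid genes 2 were open in all samples, and Klf9, which stands in both lists, was lower. None of these lower calls by reads was made without centring. Of 13 markers of myeloid progenitors, 8 had a promoter peak in all 6 samples, including Kit, Cebpa, Spi1, Hoxa9 and Meis1, while Mpo and Prtn3 had none, and of the B cell, T cell, erythroid, endothelial and stromal lists 1 gene each was open in all samples and of the liver list 0 of 4. In bulk chromatin, a region open in more cells and a region more open in each cell cannot be told apart.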

How the data were processed

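Peak lists of 6 ATAC-seq samples (3 control, 3 MMF) were analysed. According to the submitters' processing notes and the methods, reads were trimmed with Trim Galore, checked with FastQC and aligned to mm10 with Bowtie2, and the authors called peaks in each sample with MACS2; versions are not given in the sources used here. The deposited lists give each peak's fold enrichment, a ratio of summit pileup to local background, the −log10 of its p-value and q-value, and an integer score that follows the −log10 p and was not used. All 6 lists were used and 0 columns lacked a sample. The authors' test on reads was not repeated, since the lists hold no reads.

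Overlapping peaks were merged over the 6 lists (Python 3.11.15, pysam 0.24.0), and a sample's strongest peak stood for a region. A peak's fold enrichment was ranked within its list (percentile, then normal score). The whole number of summit reads and the genome-wide background were solved from the fold enrichment and the Poisson p of a peak; a longer list or a deeper library lets weaker peaks in, so ranks rise with list length. Both measures entered a linear model (limma 3.58.1 under R 4.3.3) over the 41182 regions with a peak in all 6 lists, Benjamini-Hochberg adjusted at 0.05, with no covariates, and the scripts were tested on simulated data. Background in the samples was 0.620 to 0.909 reads, and median summit reads were 14 to 19, so weak peaks rest on few reads.

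The receptor genes, the gene lists, the tests and the alternatives were chosen with earlier results of these data known. Promoters open in all samples were named by group, with values for the highest, the lowest, those without overlap and some others. Also named with values were the promoters open in some samples, the regions limma called, the 10 strongest gained regions and any at a promoter, and the strongest region of each group. The promoter regions of Nr1h2 and Nr4a2 that were not called were added after their values were seen.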

Additional observations from a re-analysis of the deposited data

How the results depend on the processing

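Counts of receptor regions moved with the setting. Of the regions gained with MMF (17 as reported), 2 remained by count with lists of equal length and 11 counted with the gene body alone, and leaving out 1 sample at a time gave 19 to 30. Lost regions (0 as reported) numbered 1 at a −log10 q of at least 2, 1 when an overlap of at least 50% of the region width was required, 4 with equal list length and 0 to 1 with 1 sample left out. Regions called higher by rank (7) numbered 1 when ranked among shared regions only, 1 with equal list length and 0 to 5 with 1 sample left out, and 3 were called lower with equal list length: the Nr1h2 promoter, the Itgb7 start and the intergenic Ppard region. Regions called higher by reads (6) numbered 26 without centring and 1 to 5 with 1 sample left out, and those called lower (25) numbered 2 without centring, 42 with a trend and robust eBayes and 2 to 11 with 1 sample left out. An alternative chosen after seeing the data, which kept regions whose nearest protein-coding start was a receptor gene's, gave 4 higher by rank, and 2 higher and 11 lower by reads. The cause of these moves was not tested, beyond the smaller number of samples or regions that some settings leave. A 500 bp window raised the share of regions with a receptor hexamer to 67.5%, beside 67.1% of all regions.

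With the replicate block, 2 regions were called higher and 0 lower by rank, and 5 higher and 11 lower by reads; the share of peaks in the windows then had an exact p of 0.25. The study names no pairing by replicate number. Correlations of the deviations of same-numbered samples were 0.00787, 0.00406 and 0.00582 by rank, and -0.00128, 0.00388 and -0.00257 by reads. Those of other-numbered samples ran from -0.00668 to 0.000544 by rank and from -0.00548 to 0.00673 by reads. Values this small, from 3 samples a group, cannot decide whether the numbers pair the samples. Whether a call lost under the block is a weaker effect was therefore not decided.

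A few uncalled rank differences changed sign when 1 sample was left out: the Nr6a1 promoter ranged from -0.25 to 0.11, the Thra promoter from -0.26 to 0.0081 and the H2-Ke6 start from -0.30 to 0.086. Promoter counts (23 to 26 of 38) and the direction of the share of peaks held under all alternatives run. The promoter rank differences did not: with lists of equal length, 23 moved by at least the larger group SD and 8 by less. With 1 sample left out, all 186 values stayed within that SD. The rank rises at promoters given above are therefore those of the lists at their full length. Each p rests on 3 samples a group, peaks missing from a list may lie just under its threshold, and the lists give no signal where no peak was called.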
